A study of Homo sapiens with 12 samples.

Results

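Tight junctions seal the space between neighbouring epithelial cells. The genes described here encode 9 of their components: the claudins CLDN1, CLDN2, CLDN3, CLDN4, CLDN7 and CLDN12, occludin (OCLN), the scaffold ZO-1 (TJP1) and junctional adhesion molecule A (F11R). They were found by gene symbol, old or current, in the annotation of the array's probes. Of the 9 genes, 8 had a named probe, with 10 probes among the 48803 on the array. No probe named F11R, so it was not analysed here. A probe was kept if its detection p was under 0.01 on at least 2 of the 12 arrays, and 7 of the 10 probes passed, for 6 of the 9 genes. In the whole series 10469 of 18852 named genes were tested.

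RNA came from AGS, a human gastric adenocarcinoma cell line, grown with mycophenolic acid (MPA) at 2 µg/ml for 12, 24, 48 or 72 h, with 2 arrays at each time, and from 0 h controls, with 4 arrays. MPA blocks inosine monophosphate dehydrogenase, the rate-limiting enzyme of guanine nucleotide synthesis. All groups were the same line without genetic change, and no control was kept for 12 to 72 h, so hours with MPA and hours in culture cannot be told apart. The labels do not say that replicates were separate cultures, and the p-values measure only the spread between these arrays, which may be technical.

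Each array had between 14077 and 15764 detected probes. The SD of the difference between 2 arrays over all tested genes was 0.252 to 0.318 within a group, on the log2 scale, and 0.35 to 0.712 between groups. Of 6 markers of simple epithelium, 5 were detected on all 12 arrays, among them EPCAM, KRT8 and KRT19, and KRT18 was detected on none. Of 6 fibroblast markers 5 were detected on no array, with COL1A1 on 7 arrays, and of 6 endothelial markers 5 were detected on no array, with PECAM1 on 3. Among the leukocyte markers PTPRC and CD3E were detected on no array, CD14 on 5 and LYZ on all 12. With MPA, EPCAM, KRT8 and KRT19 differed from 0 h over the 4 times by -0.03 to -0.01 and passed no test, while ESRP1, a splicing factor of epithelia, fell by 0.9 (limma adjusted p = 3.3e-05) and ELF3, an epithelial transcription factor, rose by 0.35 (limma adjusted p = 0.013). COL1A1 fell by 1.13 (limma adjusted p = 2.7e-06) and CD14 by 0.36 (limma adjusted p = 0.012), both in measured signals. The part of these changes in the results was not tested.

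Claudins are membrane proteins whose extracellular loops pair across the gap between cells. Some, such as claudin-1, tighten the barrier, whereas claudin-2 forms a channel through which small cations and water pass between cells. Occludin sits in the same strands, and ZO-1 holds the strands to the actin cytoskeleton from inside the cell. In healthy stomach claudin-18 is the abundant claudin of the mucosa, and claudin-2 is mostly a protein of leaky epithelia.

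Among the 6 tested genes, CLDN2 fell and CLDN1 rose at all 4 times with MPA, and both were already changed at 12 h. CLDN7 was lower at 72 h, CLDN12 was slightly higher over the 4 times together, and CLDN4 and TJP1 passed no test. At 12 h 2 of the 6 genes were called, 1 higher and 1 lower, against 34.3% of all tested genes. At 24 h the count was again 2 of 6, against 41.6% of all genes, and at 48 h 2 of 6, against 43.5%. At 72 h 3 of 6 were called, 1 higher and 2 lower, against 42.3% of all genes. The share of these genes that changed was thus near that of all genes at every time. A call is an adjusted p under 0.05 in limma, with Benjamini-Hochberg adjustment over all 10469 genes.

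The stretches just before the start sites of the 2 genes that changed at every time are shown to set them side by side, as 250 bases ending at the annotated start, 5′ to 3′ on the gene's strand, from RefSeq on GRCh38.p14. CLDN1 has 1 annotated start (chr3:190322447-190322696, minus strand) and CLDN2 has 2 (chrX:106899914-106900163 and chrX:106918110-106918359, plus strand). Capitals mark each CG dinucleotide.
CLDN1: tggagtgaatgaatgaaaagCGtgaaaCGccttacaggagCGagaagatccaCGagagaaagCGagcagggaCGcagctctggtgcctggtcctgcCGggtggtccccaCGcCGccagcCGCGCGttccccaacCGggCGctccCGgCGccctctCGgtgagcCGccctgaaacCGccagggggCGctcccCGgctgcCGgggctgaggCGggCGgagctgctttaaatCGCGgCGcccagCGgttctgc
CLDN2 first start: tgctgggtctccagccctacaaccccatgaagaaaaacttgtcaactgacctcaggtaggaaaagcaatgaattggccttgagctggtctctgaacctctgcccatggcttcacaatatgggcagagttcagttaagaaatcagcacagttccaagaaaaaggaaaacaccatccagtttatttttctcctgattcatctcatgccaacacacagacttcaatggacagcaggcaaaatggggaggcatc
CLDN2 second start: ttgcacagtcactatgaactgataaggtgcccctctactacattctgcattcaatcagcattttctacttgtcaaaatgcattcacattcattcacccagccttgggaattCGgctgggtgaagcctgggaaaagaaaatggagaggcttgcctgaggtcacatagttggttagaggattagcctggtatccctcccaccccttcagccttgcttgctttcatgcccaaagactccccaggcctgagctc
The CLDN1 stretch held 28 CG dinucleotides and 68.8% G or C. The CLDN2 stretches held 0 and 1 CG, with 46.0% and 48.8% G or C. Over all 35116 stretches of the same length the medians were 11 CG and 58.0%. As many CG as in CLDN1 occurred in 15.9% of them, and as few as in the CLDN2 stretches in 6.06% and 14.7%. Among the other tested genes, the TJP1 stretches held 2, 19, 27 and 26 CG and those of CLDN7 25 and 9. The CLDN12 stretch held 12 and that of CLDN4 held 4. A link between CG count and direction of change was not tested. CLDN1 also held 2 matches on either strand to GGGCGG, the GC box bound by SP1, which 42.6% of all stretches hold, and CLDN2 held none. Neither gene held CACCTG (bound by Snail and ZEB factors, in 17.5% of all stretches), AACCGGTT (bound by grainyhead-like factors, 0.117%), TATAAA (the TATA box, 10.7%) or TGACTCA (bound by AP-1, 4.2%). None of these motifs contains another. Across 14 stretches of 8 of the 9 genes, GGGCGG occurred in 8, CACCTG in 4 and TGACTCA in 1, in CLDN4. These are matches of letters only.

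CLDN2, the channel-forming claudin, lost its signal step by step until its probe was no longer detected. On the log2 scale after normalization its signal was 8.14, 8.15, 8.06 and 8.12 on the 0 h arrays, 6.59 and 7.12 after 12 h of MPA, 5.76 and 6.08 after 24 h, 4.50 and 4.52 after 48 h, and 4.38 and 4.55 after 72 h. No array with MPA reached the lowest 0 h array. In the intensities as deposited, before normalization, the probe read 312 to 449.7 units at 0 h, 172.5 and 244.7 after 12 h of MPA, 132.4 and 136.2 after 24 h, 79.3 and 81.8 after 48 h, and 68.6 and 79.5 after 72 h. It was detected on all arrays up to 24 h and on none at 48 or 72 h. In bulk RNA, fewer cells with the transcript and less of it in each cell cannot be told apart.

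Against 0 h, CLDN2 was lower by 2.4-fold at 12 h, with a log2 difference of -1.27 (SE 0.15, limma adjusted p = 4.6e-05), and by 4.59-fold at 24 h, with -2.2 (SE 0.15, limma adjusted p = 2.6e-07). At 48 h it was at least 5.71-fold lower (limma adjusted p = 3.4e-09), and at 72 h at least 5.6-fold lower (limma adjusted p = 5.3e-09). These are bounds because the probe was not detected there. They hold for the background correction used here, as do the other bounds given as folds, and set the mean of the 0 h arrays against the lowest signal of a detected probe on each late array. The measured means were 4.51 at 48 h, 4.46 at 72 h and 8.12 at 0 h on the log2 scale. Over the mean of the 4 times the log2 difference of measured signals was -2.68 (SE 0.1, limma adjusted p = 1.4e-09), which takes in the 4 late arrays on which the probe was not detected, and it was -1.63 without background correction. All 8 MPA arrays lay below all 4 arrays of 0 h, as did those of 10.8% of all genes.

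The fall of CLDN2 also held between times with MPA. Its 24 h level lay below its 12 h level by 0.93 in log2 units (SE 0.17, limma adjusted p = 0.0061), where 1 of 6 genes was called against 6.91% of all genes. It was lower again at 48 h than at 24 h (limma adjusted p = 0.00046, at least 1.25-fold), with 1 of 6 called against 11.1% of all. Between 72 h and 48 h the difference was -0.05 (95% interval -0.41 to 0.32, limma adjusted p = 0.94), below detection on both sides, and 0 of 6 genes were called against 2.03% of all. Late MPA (48 and 72 h) was lower than early MPA (12 and 24 h) by 1.9 in the measured log2 signal (limma adjusted p = 6.5e-07), with 1 of 6 called against 38.6% of all genes. The step to 24 h rested on few arrays: without 12 h replicate 2 its adjusted p was 0.066, and without 24 h replicate 1 it was 0.072. Of all 10469 genes, 10 fell with a call at each of the 3 steps to 12, 24 and 48 h, and 723 (6.91%) were lower with a call at all 4 times. Under another background correction or the values normalized by the authors the differences were smaller, with -2.08 the smallest at 48 h, and the calls against 0 h held in all 22 alternatives that kept the probe.

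**Figure D1:**
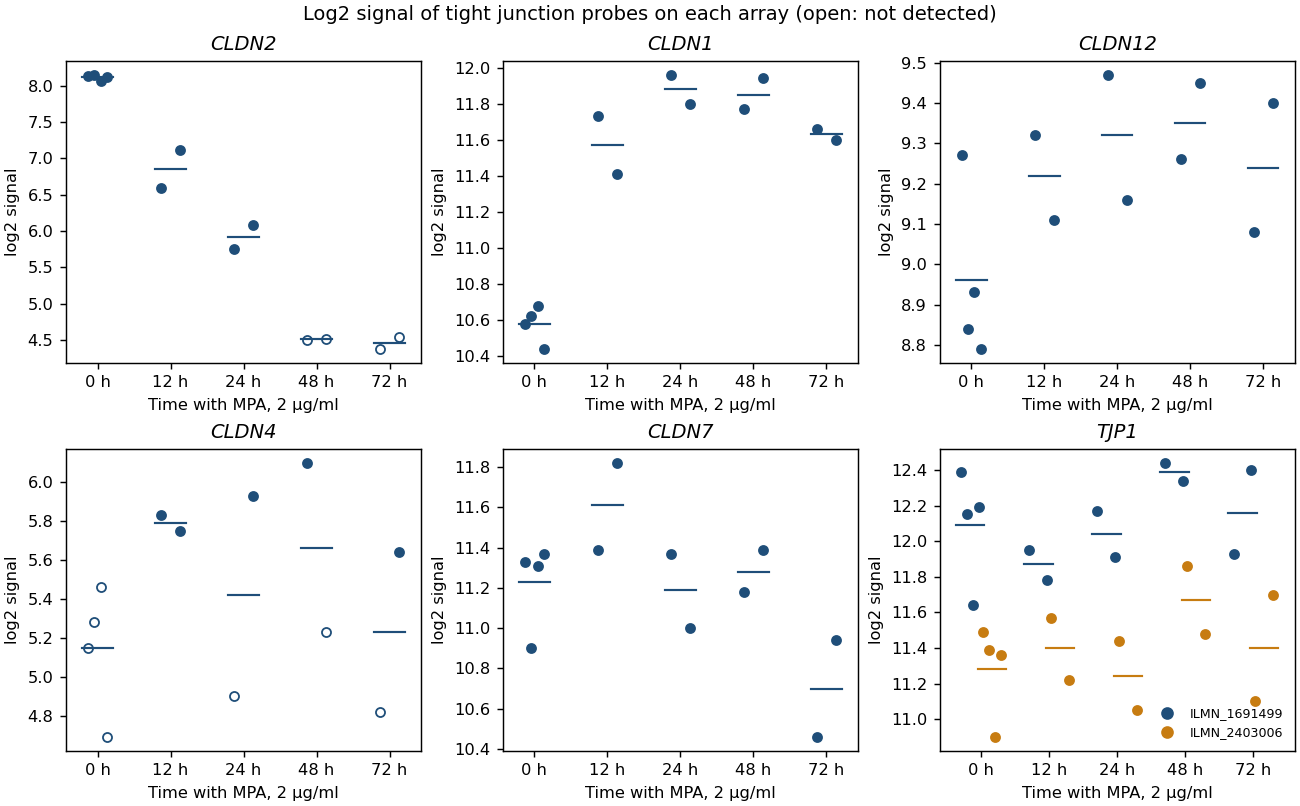
Log2 signal after normalization (y axis) of the 7 kept probes on each array by hours with MPA at 2 µg/ml (x axis). Each point is 1 array, open where the probe was not detected, and bars are group means. CLDN2 stands at 4.46 at 72 h, against 8.12 at 0 h, with open points at 48 and 72 h, and all CLDN1 points with MPA lie above those of 0 h.

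CLDN1, a barrier-forming claudin that the skin cannot do without in mice, moved the other way and held its level. Its log2 signal was 10.58, 10.62, 10.68 and 10.44 at 0 h, 11.73 and 11.41 after 12 h of MPA, 11.96 and 11.80 after 24 h, 11.77 and 11.94 after 48 h, and 11.66 and 11.60 after 72 h. Every array with MPA lay above every 0 h array, as was so for 10.8% of all genes. Against 0 h it was higher by 1.99-fold at 12 h (log2 difference 0.99, limma adjusted p = 8.5e-05), 2.47-fold at 24 h (1.3, limma adjusted p = 5.1e-06), 2.42-fold at 48 h (1.28, limma adjusted p = 7e-06) and 2.08-fold at 72 h (1.05, limma adjusted p = 3.8e-05), each with an SE of 0.13. Over the 4 times the rise was 1.16 (SE 0.09, limma adjusted p = 4.7e-07), or 2.23-fold. A rise with a call at all 4 times was found in 807 of 10469 genes (7.71%).

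Once raised, CLDN1 changed little between times. Its late minus early difference was 0.02 (95% interval -0.2 to 0.24, limma adjusted p = 0.91). The largest difference between 2 times was 0.31, for 24 h over 12 h (95% interval 0 to 0.63, limma adjusted p = 0.23). The order of its mean levels was 24 h (11.88), 48 h (11.85), 72 h (11.63), 12 h (11.57) and 0 h (10.58), and only the step to 0 h passed the test between neighbours. CLDN1 was called at every time in all 23 alternatives, with the smallest rise at 0.65 on the log2 scale, at 72 h.

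**Figure D2:**
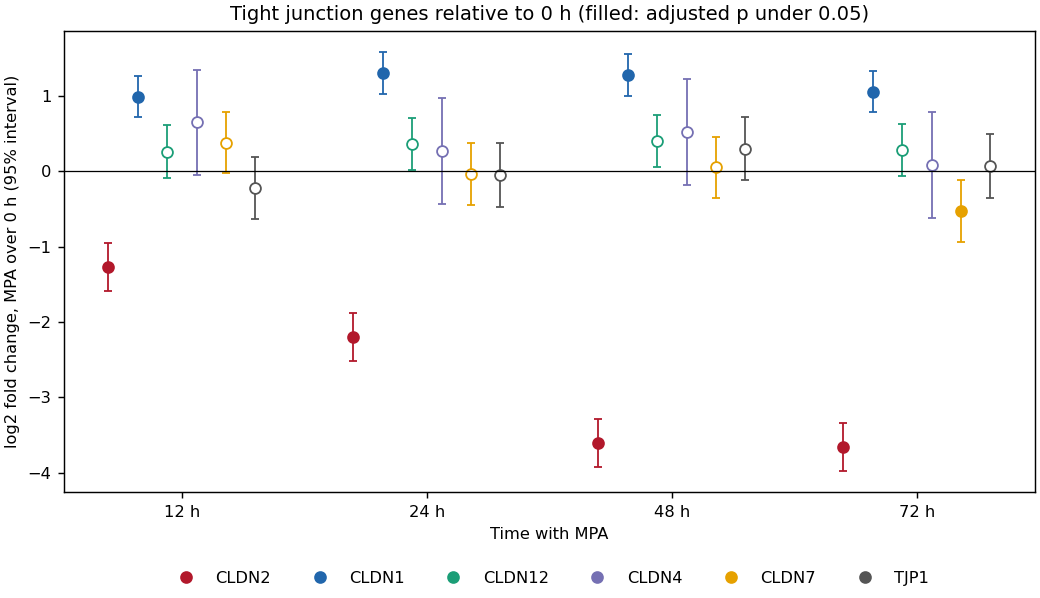
Log2 fold change of MPA over 0 h (y axis) at each time (x axis) for the 6 tested genes, with 95% intervals from limma. Filled points passed an adjusted p of 0.05: CLDN2 and CLDN1 at all 4 times and CLDN7 at 72 h, where it stood at -0.53. For CLDN2 at 48 and 72 h the points are differences of measured signals below detection.

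CLDN7 binds the adhesion molecule EpCAM and lies also along the sides of cells outside the junction strands. Its log2 signal was 11.33, 10.90, 11.31 and 11.37 at 0 h, 11.39 and 11.82 after 12 h of MPA, 11.37 and 11 after 24 h, 11.18 and 11.39 after 48 h, and 10.46 and 10.94 after 72 h. The arrays of 72 h were the lowest treated ones, and 1 of the 2 lay below all 4 arrays of 0 h. At 72 h CLDN7 was 1.44-fold lower than at 0 h (log2 difference -0.53, SE 0.19, limma adjusted p = 0.039). This call rested on single arrays: the adjusted p was 0.37 without 72 h replicate 1, with a difference of -0.29, and it was 0.072, 0.073 and 0.08 without 0 h replicate 1, 3 or 4. The difference was 0.38 at 12 h (limma adjusted p = 0.14), -0.04 at 24 h (limma adjusted p = 0.88) and 0.05 at 48 h (limma adjusted p = 0.84).

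The level of CLDN7 at 72 h also lay below that at 12 h, by 0.91 in log2 units (SE 0.22, limma adjusted p = 0.0073), with both 72 h arrays below both 12 h arrays, as in 32.7% of all genes. In that comparison 2 of the 6 genes were called, CLDN2 and CLDN7, both lower, against 33.1% of all genes. Between 72 h and 48 h CLDN7 differed by -0.58 (95% interval -1.05 to -0.11, limma adjusted p = 0.23) and between late and early MPA by -0.41 (limma adjusted p = 0.054). EPCAM, its membrane partner, did not pass the test, with a difference over the 4 times of -0.01 (limma adjusted p = 0.89).

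CLDN12 is an atypical claudin without the PDZ-binding tail by which others attach to ZO-1. Its log2 signal was 9.27, 8.84, 8.93 and 8.79 at 0 h, 9.32 and 9.11 after 12 h of MPA, 9.47 and 9.16 after 24 h, 9.26 and 9.45 after 48 h, and 9.08 and 9.40 after 72 h. The groups overlapped, with 4 of the 8 MPA arrays above all 4 arrays of 0 h. At single times the differences from 0 h were 0.26 to 0.4 with adjusted p of 0.062 to 0.23 in limma. Over the 4 times CLDN12 was higher by 0.32 (SE 0.11, limma adjusted p = 0.029), or 1.25-fold, and with CLDN1 and CLDN2 it made 3 of 6 genes called there, against 51.8% of all genes. With median scaling of the arrays instead of quantile normalization the difference was 0.13 (limma adjusted p = 0.51). It lost its call also without 0 h replicate 2, 3 or 4, 12 h replicate 1, 24 h replicate 1, 48 h replicate 2 or 72 h replicate 2, with adjusted p of 0.055 to 0.095.

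CLDN4, a barrier-forming claudin and a receptor of Clostridium perfringens enterotoxin, was at the edge of detection. Its probe was detected on 0 of 4 arrays at 0 h, both arrays at 12 h and 1 of 2 arrays at each of 24, 48 and 72 h. The log2 signal was 5.15, 5.28, 5.46 and 4.69 at 0 h, 5.83 and 5.75 after 12 h of MPA, 4.90 and 5.93 after 24 h, 6.10 and 5.23 after 48 h, and 4.82 and 5.64 after 72 h. Only the 12 h arrays both lay above all 0 h arrays, as did those of 24.1% of all genes. At 12 h its measured difference from 0 h was 0.65 (95% interval -0.05 to 1.35, limma adjusted p = 0.14). The difference over the 4 times was 0.38 (95% interval -0.12 to 0.87, limma adjusted p = 0.18).

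TJP1 encodes ZO-1, the scaffold that gathers claudins and occludin on actin, and no comparison of it passed the test. Its brighter probe had log2 signals of 12.39, 12.15, 11.64 and 12.19 at 0 h, 11.95 and 11.78 after 12 h of MPA, 12.17 and 11.91 after 24 h, 12.44 and 12.34 after 48 h, and 11.93 and 12.40 after 72 h. The groups overlapped at every time. Over the 4 times the difference was 0.02 (95% interval -0.27 to 0.32, limma adjusted p = 0.9), and at single times it ran from -0.22 at 12 h to 0.3 at 48 h. The second TJP1 probe, annotated to another transcript record, gave 0.14 over the 4 times (95% interval -0.19 to 0.47, limma adjusted p = 0.47 over all kept probes). At each time with MPA both probes were higher on the same one of the arrays.

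CLDN3 and OCLN had probes that were never above background. The CLDN3 probe read 72.6 to 99.4 units as deposited, with detection p of 0.179 to 0.879. The 2 OCLN probes read 71.2 to 96.7 and 75.9 to 98.6 units, with detection p no lower than 0.162. No fold change is given for them. OCLN also has a transcribed pseudogene.

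The genes whose signal followed these claudins most closely over the 12 arrays are given as a description, since all share the same arrays and time groups. For CLDN2 they were NDC1, a nuclear pore protein (Pearson r 0.986), SLCO2A1, a prostaglandin transporter (0.984), and PLA2G2A, a secreted phospholipase (0.984). Their log2 fold changes over 0 h at 12, 24, 48 and 72 h were -0.49, -0.81, -1.21 and -1.24 for NDC1. For PLA2G2A they were -0.58, -1.35, -1.9 and -1.88. SLCO2A1 was detected on 9 of 12 arrays and its measured differences ran from -0.85 at 12 h to -3.47 at 72 h. For CLDN1 the nearest genes were NFKBIZ, an inhibitor of kappa B family member in the nucleus (0.99), C1orf116 (0.987) and COQ8A, which acts in coenzyme Q synthesis (0.984). Their log2 fold changes at 24 h were 1.28, 1.29 and 1.4, beside 1.3 for CLDN1. For CLDN7 the nearest were OXA1L, FBXL12 and CCS, with r of 0.912, 0.905 and 0.891.

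**Figure D3:**
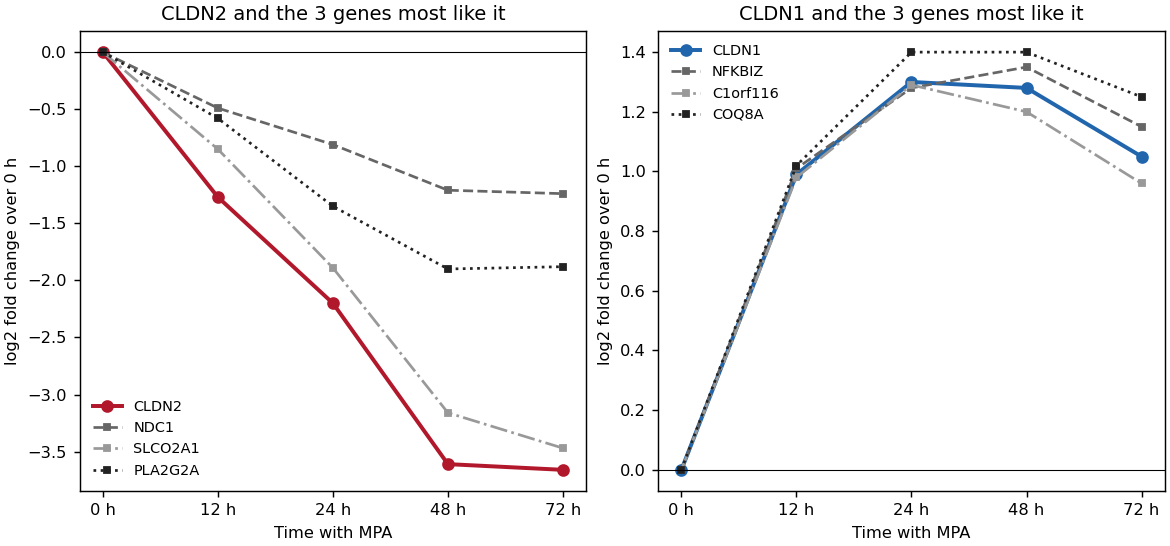
Log2 fold change over 0 h (y axis) by hours with MPA (x axis) of CLDN2 (left) and CLDN1 (right), each with the 3 genes of highest Pearson r over the 12 arrays. CLDN2 and its neighbours go down until 48 h, while CLDN1 and its neighbours reach their level by 24 h (1.3 for CLDN1). At 48 and 72 h the CLDN2 points are differences of measured signals below detection, so a further fall would not show. SLCO2A1 stood at -3.16 at 48 h and -3.47 at 72 h in measured signals.

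Beyond these 9 genes, lists of other junction and polarity genes held 106 genes, of which 93 had a named probe and 63 were tested. Over the 4 times 19 of the 63 rose and 11 fell, while 24.5% of all genes rose and 27.3% fell. This was 47.6% called against 51.8% of all genes, and the median log2 fold change was 0.06, against -0.03 over all genes. With median scaling 8 rose and 14 fell, 34.9% called against 48.2% of all genes, so the excess of rises over falls in these lists depends on the scaling.

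Other claudins were mostly not detected: of 18 listed, 16 had a probe and 5 were tested, of which 3 rose and 1 fell. That was 80% called among these few, against 51.8% of all genes. CLDN18, the claudin of gastric mucosa, fell by 0.85 over the 4 times (SE 0.16, limma adjusted p = 0.00057), in measured signals that were above background on 4 of 8 MPA arrays and 4 of 4 at 0 h. Its log2 signal was 6.19, 6.77, 6.63 and 6.33 at 0 h, 6.03 and 5.63 after 12 h of MPA, 5.25 and 5.89 after 24 h, 5.31 and 5.88 after 48 h, and 5.50 and 5.54 after 72 h. All 8 MPA arrays lay below those of 0 h, as did those of 10.8% of all genes. At 72 h, where no array detected it, CLDN18 was at least 1.8-fold lower. Under the alternatives its difference over the 4 times ran from -0.94 to -0.41. CLDN15, which like claudin-2 lets cations pass, had a course of its own, with 8.23, 8.46, 8.34 and 8.51 at 0 h, 7.89 and 7.63 after 12 h of MPA, 8.50 and 8.41 after 24 h, 9.03 and 9.28 after 48 h, and 9.64 and 9.58 after 72 h. It was lower than 0 h at 12 h (-0.63, limma adjusted p = 0.0024) and higher at 72 h (1.23, limma adjusted p = 1.2e-05), and late MPA lay above early MPA by 1.28 (SE 0.1, limma adjusted p = 4.1e-06). Over the 4 times CLDN15 rose by 0.36 (limma adjusted p = 0.005), a call lost under median scaling (0.18, limma adjusted p = 0.28). CLDN23 rose by 0.66 (SE 0.1, limma adjusted p = 0.00016) and CLDN14 by 0.35 (SE 0.11, limma adjusted p = 0.016). The CLDN14 call was lost without 0 h replicate 1 (adjusted p = 0.059) or 2 (0.055) and under median scaling of the arrays (0.25). At single times CLDN14 passed only at 48 h (0.76, limma adjusted p = 0.0015) and 72 h (0.41, limma adjusted p = 0.046).

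Among other membrane proteins of the junction 3 of 7 rose and none fell, 42.9% called against 51.8% of all genes. MARVELD2, or tricellulin, which seals the corners where 3 cells meet, had log2 signals of 7.05, 6.93, 6.27 and 6.70 at 0 h, 8.08 and 7.95 after 12 h of MPA, 8.06 and 7.38 after 24 h, 7.78 and 7.59 after 48 h, and 7.59 and 7.86 after 72 h. All 8 MPA arrays lay above those of 0 h, as did those of 10.8% of all genes. MARVELD2 rose by 1.05 (SE 0.15, limma adjusted p = 0.00011). LSR and ILDR1, the angulins that bring tricellulin to those corners, rose by 0.39 (limma adjusted p = 0.0061) and 0.41 (limma adjusted p = 0.01), and both lost the call under median scaling (adjusted p = 0.14 for LSR and 0.055 for ILDR1). With the mean of its probes in place of the brightest, LSR differed by 0.12 (adjusted p = 0.44). LSR was highest at 12 h (0.87) and stood at -0.06 at 72 h, and its late level lay below its early one by 0.7 (limma adjusted p = 0.00076). ILDR1 passed at single times only at 72 h (0.8, limma adjusted p = 0.002).

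Of the plaque proteins 2 of 7 rose and 2 fell, 57.1% called against 51.8% of all genes. YBX3, the Y-box factor ZONAB that ZO-1 binds, rose by 0.99 (SE 0.07, limma adjusted p = 3.4e-07) and TJAP1 by 0.37 (limma adjusted p = 0.001), the second not under median scaling (adjusted p = 0.43). CGNL1, or paracingulin, was detected on no array with MPA and on 3 of 4 at 0 h. It thus passed the detection filter only through 0 h arrays, where its signal was higher than with MPA but still near background. It was at least 1.18-fold lower at 12 h (limma adjusted p = 0.0011) and at least 1.35-fold lower at 24 h (limma adjusted p = 0.00018). PATJ passed at single times only at 24 h (-0.71, limma adjusted p = 0.018). Over the 4 times PATJ fell by 0.38 (limma adjusted p = 0.048), a call kept in 12 of 23 alternatives. It was lost without 0 h replicate 2 (adjusted p = 0.55), 3 (0.091) or 4 (0.12), 12 h replicate 1 (0.094), 24 h replicate 2 (0.092), 48 h replicate 1 or 2 (0.07 each) or 72 h replicate 2 (0.09), and also without a detection filter (0.075) and with the mean of its probes (0.28).

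Among the polarity genes 2 of 10 rose and 3 fell, 50% called against 51.8% of all genes. Both atypical protein kinases C were lower, PRKCZ by 0.82 (SE 0.09, limma adjusted p = 1.2e-05) and PRKCI by 0.52 (SE 0.11, limma adjusted p = 0.0013). PRKCZ was lowest at 12 h, at -1.32, and its late level lay above its early one by 0.78 (limma adjusted p = 0.00016). LLGL2, of the basolateral polarity complex, fell by 0.66 (limma adjusted p = 0.0024), and LIN7B rose by 0.52 (limma adjusted p = 0.001). At single times LLGL2 passed only at 48 h (-0.98, limma adjusted p = 0.0022) and 72 h (-1.03, limma adjusted p = 0.0017).

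Of the transcription factors 4 of 10 rose and 1 fell, 50% called against 51.8% of all genes. SNAI1, SNAI2, ZEB1 and ZEB2, known as repressors of claudin genes, were detected on no array. TWIST1, a mesenchymal factor of the same list, was detected on all 12 arrays and differed by -0.23 (limma adjusted p = 0.24). OVOL1 was not detected at 0 h and so passed the detection filter only through MPA arrays. After 12 h of MPA its signal was at least 1.84-fold higher (limma adjusted p = 0.00038). Its measured difference was 0.25 at 48 h (limma adjusted p = 0.29) and 0.22 at 72 h (limma adjusted p = 0.37). At each of these times 1 of 2 arrays detected it, and late MPA lay below early MPA by 0.83 (limma adjusted p = 0.0011). OVOL2 fell by 0.55 (limma adjusted p = 0.00041). GRHL3 rose by 0.49 (limma adjusted p = 0.011) and KLF4 by 0.41 (limma adjusted p = 0.0022), and neither kept its call under median scaling (adjusted p = 0.11 for GRHL3 and 0.45 for KLF4) or with the mean of a gene's probes (0.17 for GRHL3 and 0.11 for KLF4). At single times both passed only at 48 and 72 h.

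Among EpCAM and its partners 1 of 8 rose and 1 fell, 25% called against 51.8% of all genes. CD82, a tetraspanin, had log2 signals of 6.66 to 6.98 at 0 h, 8.45 and 8.55 after 12 h of MPA, 10.12 and 10.20 after 24 h, 10.24 and 10.39 after 48 h, and 9.14 and 9.42 after 72 h. All arrays with MPA were higher than those of 0 h, as in 10.8% of all genes. The CD82 rise of 2.77 over the 4 times (SE 0.09, limma adjusted p = 3e-10) was the largest in the lists. CD9, another tetraspanin, fell by 0.3 (limma adjusted p = 0.012).

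In the list of junction contractility and turnover 4 of 16 rose and 3 fell, 43.8% called against 51.8% of all genes. MYLK, the myosin light chain kinase that tightens the actin ring at junctions, was detected on no array at 0 or 12 h and on all from 24 h. It thus passed the detection filter only through MPA arrays where its signal was higher. It was at least 1.92-fold higher at 24 h (limma adjusted p = 7.4e-08), at least 4.45-fold at 48 h (limma adjusted p = 1.3e-09) and at least 1.17-fold at 72 h (limma adjusted p = 3.8e-06). ITCH, a ubiquitin ligase of occludin, rose by 0.58 (limma adjusted p = 0.00068). TIAM1, an activator of Rac, fell by 0.68 (limma adjusted p = 0.00013), and ARHGEF11, which binds ZO-1, by 0.44 (limma adjusted p = 0.02). The ARHGEF11 call was lost without 0 h replicate 3 (adjusted p = 0.078) or 4 (0.063) and with array weights (0.05). At single times ARHGEF11 passed only at 72 h (-1.1, limma adjusted p = 0.00089), where 1 of 2 arrays detected it.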

How the data were processed

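Gene expression of AGS cells was measured on 12 Illumina HumanHT-12 arrays. The authors deposited intensity values, which are bead signals before any normalization, and the detection score deposited with each is a fraction, 1 minus the detection p. The deposited log2 values had been made with lumi (settings not stated) and served as an alternative. RNA was labelled from its poly(A) end. The number of arrays limits the precision.

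Intensities were background-corrected (normexp, offset 16), set to log2 and quantile normalized in limma 3.58.1 (R 4.3.3). Probe names came from GEO's annotation of the design recorded for the series, an earlier version than the methods name, and 28059 of the 28098 probes with 1 gene were updated to RefSeq symbols. Each gene was represented by its brightest kept probe, one model held all 5 groups, and limma's moderated test was adjusted over 10469 genes. Bounds written as "at least" use the lowest signal among detected probes on each dim array. In simulated data 83 of 100 genes with a log2 change of 1 at 12 h, and 100 of 100 with 2, were recovered among 10469 genes. Only those genes were changed there, alike at all MPA times. In the measured data 34.3% of genes were called at 12 h, so these rates need not hold for them.

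The 9 genes and the lists were chosen with earlier results of these data known. From each list up to 4 called genes with the largest change over the 4 times were named, and for each of the 9 called at a time, the 3 genes of highest correlation. The 3 differences between 48 or 72 h and 12 h, and between 72 and 24 h, were added after values were seen, as was the count of CG dinucleotides. Alternatives covered background, scaling, filter, probe rule, weights, blocks and single arrays left out.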

Additional observations from a re-analysis of the deposited data

Results flagged for a closer look

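On the 0 h arrays the log2 signal of CLDN7 had 1 array apart from the others: replicate 2 stood at 10.90 and the other three between 11.31 and 11.37. The gap to the nearest array was 0.873 of the group's range, above Dixon's critical value for 4 arrays. Chance gives such a gap in about 1 in 20 groups, and 7 probes were looked at. Without this array the CLDN7 call at 72 h remained.

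CLDN2 changed between times with MPA, each difference tested in limma over all genes. It was lower late than early (-1.9 on the log2 scale), at 24 h than at 12 h (-0.93) and at 48 h than at 24 h (-1.41), and from 48 h its probe was not detected.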

How the results depend on the processing

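Recomputed under 24 alternatives, of which 1 changed only the call rule, the numbers of the 6 genes called were within 1.5 times of the reported ones in 198 results and not in 18, and no called difference changed sign. Requiring detection on all 12 arrays left 4 of the 6 genes, without CLDN2 and CLDN4, and gave 1 called gene at 12 h, 1 at 24 h and 0 for 24 h against 12 h and 48 h against 24 h. Asking also for a 2-fold change gave 1 at 12 h and 0 for 24 h against 12 h. For late against early MPA the count was 2, with CLDN7 added to CLDN2, under the authors' log2 values, no background correction, an offset of 50, median scaling and a variance trend, and 1 to 2 with 1 array left out. For 24 h against 12 h it was 0 when only those groups entered the fit (CLDN2 adjusted p = 0.051) and 0 to 1 with 1 array left out. CLDN4 was called at 12 h under median scaling and with only the compared groups fitted. The CLDN7 call at 72 h was lost without a detection filter (adjusted p = 0.061) and with array weights (0.083).

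Replicate numbers gave no sign of pairing the arrays: deviations of same-numbered arrays correlated at -0.19 to 0.27, median -0.02. For arrays of different number it was -0.27 to 0.25, median 0.02. In groups of 2 arrays the deviations mirror each other, so this check cannot exclude pairing. Numbers 3 and 4 occurred only at 0 h, so a fit with the replicate block left only 0 h replicates 1 and 2 as controls. Fewer controls and pairing cannot be told apart in its results. With the replicate block, the adjusted p was 0.2 for CLDN7 at 72 h and 0.26 for CLDN12 over the 4 times. For other genes over the 4 times it was 0.067 for LLGL2 (-0.46), 0.15 for CD9 (-0.23), 0.33 for ARHGEF11 (-0.2), 0.078 for ILDR1 (0.32), 0.19 for GRHL3 (0.34) and 0.28 for PATJ (-0.31). A block by slide could not be run, as the columns name no slide.

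Under median scaling the median log2 fold change of all genes was -0.31 at 48 h and -0.32 at 72 h, against -0.04 and -0.02 as reported. The split of all genes called moved too: 942 higher and 3574 lower at 48 h, against 2172 and 2385 as reported, and 843 and 3545 at 72 h, against 2196 and 2237. Over the 4 times it was 1401 and 3643, against 2570 and 2855. At 24 h it was 1236 and 2046, against 2132 and 2227, and for late against early MPA 495 and 3148, against 2054 and 1984. For 48 h against 24 h the split was 77 and 522, against 473 and 685, and for 72 h against 48 h 17 and 54, against 84 and 128. Median scaling called 2201 genes at 12 h, against 3594, and 327 between 24 and 12 h, against 723. Leaving out an array gave 2235 genes at 12 h without 12 h replicate 2, and 2882 or 2899 at 24 h without 24 h replicate 1 or 2, against 4359. Between times the counts were 257 to 270 without 12 h replicate 2 or a 24 h array, for 24 h against 12 h. For 48 h against 24 h, with 1158 as reported, they were 276 to 516 without a 24 or 48 h array, and for 72 h against 48 h, with 212, they were 70 to 110 without a 48 or 72 h array. With only the compared groups fitted these were 443, 660 and 42, and detection on all 12 arrays gave 131 for the last.

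Signals near background limit CLDN4, CLDN18, CGNL1, OVOL1, MYLK and late CLDN2. The detection filter kept CGNL1 only through 0 h arrays, and OVOL1, MYLK and CLDN4 only through MPA arrays. It thus chose these genes on the side where their signals were higher. Folds are bounds where a group had no detected array.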
